A study of Mus musculus with 18 samples.

Results

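Semaphorins, plexins and neuropilins were described in cultured mouse tail tendon fibroblasts (TFs). The members were every row of the gene count table whose symbol was Sema3 to Sema7 with a letter a to g, Plxn with a letter a to d and a number, or Nrp1 or Nrp2. The rule found 31 genes among 55491 rows: 20 semaphorins, 9 plexins and 2 neuropilins. The rule itself reads gene symbols alone.

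The study asked how loss of Hif1a, which encodes the oxygen-regulated subunit of hypoxia-inducible factor 1, and low oxygen shape TFs. TFs were grown from tail tendons of male and female mice aged 4 to 6 months on a mixed C57BL6J/129S1 background and kept for 4 days in 20% or 1% O2. Poly-A RNA was sequenced from 18 libraries, 3 for each of 6 groups. Ctrl TFs were labelled wild-type and came from mice that the study's methods call Cre-negative, so that the controls may carry unrecombined floxed Hif1a. cKO TFs came from mice with floxed Hif1a alleles and Cre under the scleraxis (Scx) promoter, which is active in the tendon lineage. The third arm held Ctrl TFs treated with Cre gesicles, vesicles that deliver Cre protein to cells. Each arm was kept in 20% and in 1% O2. The labels do not say which libraries share a mouse, so the p-values below measure the spread between these libraries.

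Semaphorins are guidance ligands first known for steering axons, and are also made by connective tissue cells. Class 3 members are secreted, classes 4, 5 and 6 span the membrane, and Sema7a is held by a lipid anchor. Plexins are their receptors, with a GTPase-activating domain inside the cell. Neuropilins bind class 3 semaphorins together with plexins, and also bind VEGF. In bulk RNA, fewer cells of a type and less RNA per cell cannot be told apart.

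Libraries held 6857558 to 51806453 assigned reads. The first cKO library in 1% O2 was the shallowest, and 3 reads there equal 0.427 CPM (counts per 1000000 reads of a library), against 0.0592 to 0.108 CPM in the other libraries. Hif1a itself did not separate the genotypes: its level was 294 to 431 CPM in cKO and 335 to 371 CPM in Ctrl libraries in 20% O2, and 398 to 504 against 365 to 488 CPM in 1% O2. Counts over the whole gene do not resolve the floxed exon. Cre reads were listed in the cKO libraries alone, at 0 to 0.127 CPM. By Xist and Y-linked reads, 1 of 3 Ctrl and 2 of 3 cKO libraries at each oxygen level came from males, so sex was unequal between the genotypes. The 13 fibroblast and tendon markers summed to 7260 to 18800 CPM per library, and the 4 epithelial markers to at most 0.498 CPM. Mural markers summed to 20.2 to 93.8, endothelial to 11.9 to 76.5 and muscle to 12.4 to 47.7 CPM. Macrophage and blood markers summed to 19.7 to 38.7, Schwann and neural to 17.1 to 25.4 and adipocyte to 1.53 to 6.96 CPM.

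Promoter windows of the members that the results turn on are shown first. RefSeq windows of the GRCm38.p6 build, each of 300 bases from 250 bases before an annotated start, were found for 26 of the 31 members. Plxna1, Plxna4, Sema3b, Sema3f and Sema6a had no entry. The windows below belong to Plxnb1 and Sema5a, which fell in 1% O2, to the 4 class 3 semaphorin genes that lie near each other on chromosome 5 and fell together in 1% O2, to Sema6b, which rose, and to Plxnc1 and Nrp2, which were lower in cKO TFs. Capitals mark the core of the hypoxia response element, ACGTG or GCGTG, read on either strand. Positions are chr5:12382916-12383215 for Sema3d, chr5:13396534-13396833 for Sema3a, chr5:14025026-14025325 for Sema3e and chr5:17574566-17574865 for Sema3c, all on the plus strand. They are chr9:109095186-109095485 for Plxnb1 and chr15:32244563-32244862 for Sema5a, both on the plus strand, and chr17:56133803-56134102 for Sema6b and chr10:94944796-94945095 for Plxnc1, both on the minus strand, and chr1:62703067-62703366 for Nrp2, on the plus strand.
Plxnb1: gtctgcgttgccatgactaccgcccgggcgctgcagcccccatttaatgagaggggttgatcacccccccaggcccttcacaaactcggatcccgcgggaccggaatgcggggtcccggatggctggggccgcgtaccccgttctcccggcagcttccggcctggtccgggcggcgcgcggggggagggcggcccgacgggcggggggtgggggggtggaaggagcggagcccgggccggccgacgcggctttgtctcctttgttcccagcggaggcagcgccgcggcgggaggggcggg
Sema5a: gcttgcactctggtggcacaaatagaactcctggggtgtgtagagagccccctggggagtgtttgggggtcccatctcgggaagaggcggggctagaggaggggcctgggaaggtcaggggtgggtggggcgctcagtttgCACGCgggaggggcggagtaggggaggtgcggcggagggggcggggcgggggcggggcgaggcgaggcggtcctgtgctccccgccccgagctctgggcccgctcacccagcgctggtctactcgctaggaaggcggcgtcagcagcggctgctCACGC
Sema3d: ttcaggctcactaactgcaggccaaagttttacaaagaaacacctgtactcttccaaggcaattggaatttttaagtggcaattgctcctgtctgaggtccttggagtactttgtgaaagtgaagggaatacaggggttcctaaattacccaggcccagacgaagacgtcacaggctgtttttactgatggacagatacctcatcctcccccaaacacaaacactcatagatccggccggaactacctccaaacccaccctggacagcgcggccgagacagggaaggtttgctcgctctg
Sema3a: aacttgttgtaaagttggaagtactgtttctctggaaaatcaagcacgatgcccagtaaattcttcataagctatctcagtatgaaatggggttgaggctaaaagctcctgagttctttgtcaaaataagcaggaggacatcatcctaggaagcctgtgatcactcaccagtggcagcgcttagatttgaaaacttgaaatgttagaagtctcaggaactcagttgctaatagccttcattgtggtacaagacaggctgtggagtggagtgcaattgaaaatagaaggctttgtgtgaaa
Sema3e: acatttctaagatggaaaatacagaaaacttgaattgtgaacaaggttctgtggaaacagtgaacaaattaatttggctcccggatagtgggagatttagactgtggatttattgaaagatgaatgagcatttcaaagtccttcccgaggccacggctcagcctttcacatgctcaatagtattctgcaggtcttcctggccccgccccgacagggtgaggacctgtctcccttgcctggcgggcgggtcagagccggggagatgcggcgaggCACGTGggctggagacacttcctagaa
Sema3c: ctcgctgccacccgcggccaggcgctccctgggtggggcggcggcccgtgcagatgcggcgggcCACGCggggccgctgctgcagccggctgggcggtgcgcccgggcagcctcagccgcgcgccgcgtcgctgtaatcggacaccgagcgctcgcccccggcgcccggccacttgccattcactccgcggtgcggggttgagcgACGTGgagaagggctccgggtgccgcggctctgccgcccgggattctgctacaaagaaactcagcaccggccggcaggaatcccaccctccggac
Sema6b: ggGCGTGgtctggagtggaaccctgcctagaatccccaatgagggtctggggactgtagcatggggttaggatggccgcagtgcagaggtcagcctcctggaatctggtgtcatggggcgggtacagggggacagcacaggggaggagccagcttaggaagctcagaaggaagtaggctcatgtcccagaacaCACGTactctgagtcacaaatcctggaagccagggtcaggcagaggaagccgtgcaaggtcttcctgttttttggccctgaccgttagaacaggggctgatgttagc
Plxnc1: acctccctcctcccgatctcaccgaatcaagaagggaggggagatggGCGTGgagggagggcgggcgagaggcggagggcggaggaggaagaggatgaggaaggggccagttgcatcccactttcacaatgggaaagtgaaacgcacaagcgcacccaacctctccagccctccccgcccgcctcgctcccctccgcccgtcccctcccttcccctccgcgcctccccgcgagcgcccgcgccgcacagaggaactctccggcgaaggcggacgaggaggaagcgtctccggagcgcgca
Nrp2: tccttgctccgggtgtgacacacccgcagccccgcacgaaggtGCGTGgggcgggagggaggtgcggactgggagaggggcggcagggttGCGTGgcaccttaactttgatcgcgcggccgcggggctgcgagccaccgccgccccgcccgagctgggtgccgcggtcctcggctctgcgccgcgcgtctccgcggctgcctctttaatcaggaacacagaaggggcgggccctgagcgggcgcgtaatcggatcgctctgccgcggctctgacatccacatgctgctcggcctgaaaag

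A core was found in 20 of the 37 windows of the members (54.1%) and in 14380 of all 32851 windows in the table (43.8%). The median GC content was 63.7% for the members' windows and 52.7% for all windows. Sema3e holds 1 palindromic stretch, CACGTG, which reads as ACGTG on both strands and occurs in 7.15% of all windows. Sema3c and the Sema6b window shown each hold 1 ACGTG and 1 GCGTG, while a second Sema6b window holds neither. The Sema6b window shown lies inside the gene as GENCODE annotates it, and the second window lies at the annotated start of the gene. Sema3a and Sema3d, which fell as Sema3c and Sema3e did, hold no core in these windows. The Sema3a window lies inside the gene as GENCODE annotates it, at the start of a shorter transcript. Plxnb1, which also fell, holds none either, and Sema5a holds 2 GCGTG. Nrp2 holds 2 GCGTG and Plxnc1 holds 1. Sema6d, the other called member with an entry, is not printed: 1 of its windows holds CACGTG and the other holds no core. These are matches of letters, not sites.

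Levels differed widely among members. Means over the 18 libraries were at least 100 CPM for 6 members, 10 to 100 CPM for 6, 1 to 10 CPM for 11 and under 1 CPM for 8. Per kb of exon, Sema3c, a secreted ligand, had the highest mean level at 73.3 CPM per kb. It was followed by the receptor Plxnb2 at 32.2, the ligand Sema3d at 29.1, the co-receptor Nrp1 at 21.0, Plxna1 at 16.2 and Nrp2 at 10.8 CPM per kb. In Ctrl TFs in 20% O2, Plxnb2 (43.5 to 43.9 CPM per kb) and Sema3d (33.6 to 54.6) overlapped, as did Nrp1 (14.8 to 23.8) and Plxna1 (16.1 to 24.4). The order differed between groups. In 1% O2 the group mean of Nrp1 was 22.9 in Ctrl, 22.3 in cKO and 24.4 CPM per kb in gesicle-treated TFs, above Sema3d at 21.4, 21.6 and 22.3, and in cKO TFs both lay above Plxnb2 at 15.3 CPM per kb.

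Except for Sema3g, the secreted class 3 ligands had higher means than every membrane-bound semaphorin. Sema3f, Sema3a, Sema3b and Sema3e had means of 7.73, 6.75, 6.44 and 3.69 CPM per kb. The highest membrane semaphorin was Sema4c at 2.002 CPM per kb, followed by Sema6c at 1.08 and Sema6a at 0.764. The remaining class 4, 5, 6 and 7 genes had means of 0.0221 to 0.425 CPM per kb. Of the receptors, Plxna3, Plxna2 and Plxnd1 had means of 1.31, 0.620 and 0.595 CPM per kb, and Plxnb1, Plxnc1 and Plxna4 of 0.297, 0.257 and 0.166. Plxnb3 and Sema3g reached at most 0.251 CPM in any library, did not pass the filter on low counts and were not tested. The other 29 members were tested in every comparison.

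**Figure D1:**
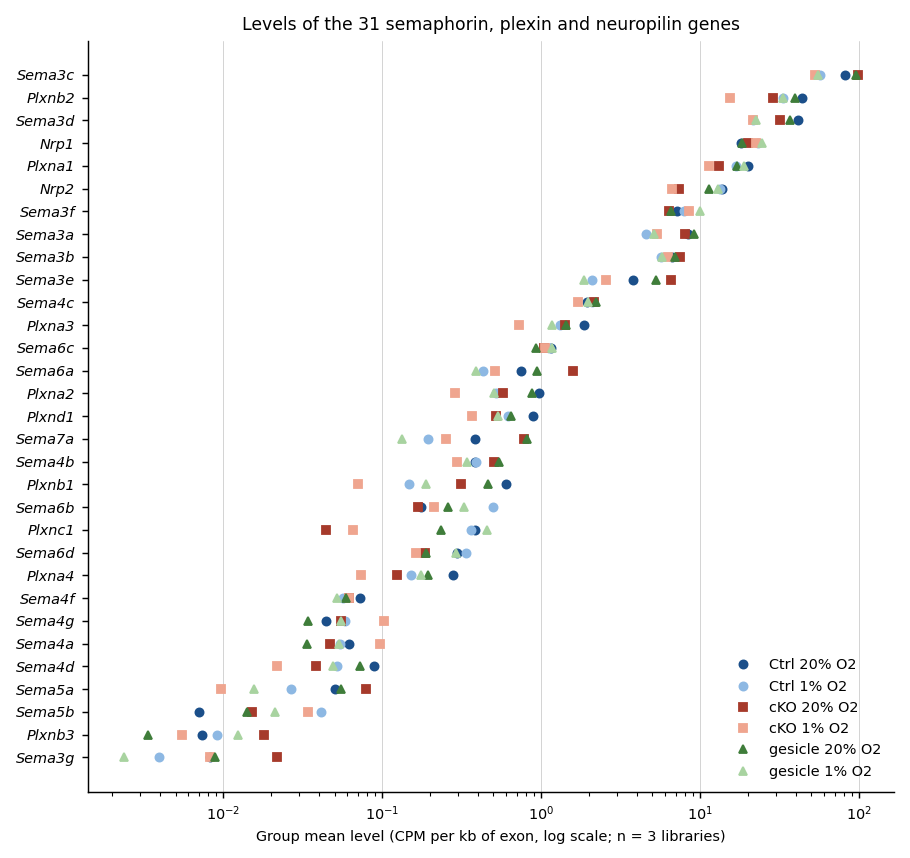
Group means of the 31 members in CPM per kb of exon, on a log axis, with 1 symbol for each of the 6 groups (3 libraries each) and genes ordered by the mean over all libraries. Sema3c leads at 73.3 CPM per kb, Plxnb3 and Sema3g are at the bottom, and the red symbols of Plxnc1 (cKO) stand apart from those of the other arms.

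The first question was whether oxygen changed these genes. With the 3 arms averaged (9 libraries in 1% O2 against 9 in 20% O2), 7 members were lower in 1% O2 and 1 was higher by edgeR's quasi-likelihood test at an adjusted p under 0.05 and a change of at least 1.5-fold. Over all 16174 genes tested, 10.5% were called, 5.13% lower and 5.36% higher. The lower members were Sema3a, Sema3c, Sema3d, Sema3e, Sema5a, Sema6a and the receptor Plxnb1, and Sema6b was higher. Every library was taken as independent here, although libraries of different oxygen levels, or of Ctrl and gesicle-treated TFs, may share a mouse. Ctrl and gesicle-treated libraries with the same number deviated together (r from 0.193 to 0.462). The median log2 fold change was -0.45 over the 29 tested members and -0.02 over all genes tested. Plxnb1, Sema3c, Sema3e and Sema6a were lower in all 9 pairs of libraries with the same arm and number, as were 6.56% of all genes. Such pairs need not share a mouse. Deviations of same-number libraries had r of 0.0921 to 0.368 in cKO and of -0.00612 to 0.216 in gesicle-treated TFs. Within single arms the oxygen levels did not overlap for 4 members in Ctrl, 7 in cKO and 7 in gesicle-treated TFs. The shares of all genes without overlap were 30%, 20.6% and 24%.

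Sema3c, the most abundant ligand, was at 578, 706 and 466 CPM in Ctrl TFs in 20% O2 and at 428, 476 and 306 CPM in 1% O2. In cKO TFs its level was 763, 534 and 800.0 CPM in 20% O2 and 271, 423 and 433 CPM in 1% O2. Gesicle-treated TFs gave 679.8, 663 and 708 CPM in 20% O2 and 576, 406 and 200.03 CPM in 1% O2. The oxygen levels overlapped in Ctrl TFs but not in the cKO or gesicle arm. Averaged over the arms the log2 fold change was -0.74 ± 0.17 (SE; adjusted p = 0.00603, edgeR).

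Sema3d, also secreted, was at 289, 298 and 469.5 CPM in Ctrl TFs in 20% O2 and at 95.6, 227 and 229 CPM in 1% O2. The cKO levels were 358, 199.7 and 257 CPM in 20% O2 and 130.5, 234 and 191 CPM in 1% O2. Gesicle-treated TFs had 233, 265 and 454 CPM in 20% O2 and 197, 223 and 155 CPM in 1% O2. The oxygen levels did not overlap in the Ctrl and gesicle arms and overlapped in cKO TFs. Its log2 fold change over the arms was -0.74 ± 0.20 (SE; adjusted p = 0.0136, edgeR).

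Sema3a, which repels axons through Nrp1 and A-type plexins, was at 109, 166 and 72.2 CPM in Ctrl TFs in 20% O2 and at 49.4, 99.7 and 40.6 CPM in 1% O2. In cKO TFs it was at 118, 78.8 and 137 CPM in 20% O2 and 47.0, 93.5 and 82.2 CPM in 1% O2, and in gesicle-treated TFs at 101, 201 and 77.7 against 80.2, 99.1 and 33.6 CPM. The oxygen levels overlapped in every arm, and the level was lower in 1% O2 in 8 of the 9 pairs with the same arm and number. Over the 3 arms its log2 fold change was -0.76 ± 0.26 (SE), and the adjusted p of 0.046 (edgeR) lay near the threshold. The call held without any 1 of 7 libraries and was lost without any 1 of the other 11, with adjusted p from 0.0525 to 0.112. Those whose removal kept it were the third Ctrl, the second cKO and the first and the third gesicle libraries in 20% O2 and the second library of each arm in 1% O2.

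Sema3e, a ligand that binds Plxnd1 without a neuropilin, was at 23.2, 62.7 and 19.8 CPM in Ctrl TFs in 20% O2 and at 18.6, 26.6 and 13.2 CPM in 1% O2. In cKO TFs it was at 75.1, 39.3 and 69.0 CPM in 20% O2 and 20.3, 28.0 and 22.5 CPM in 1% O2. The gesicle arm had 28.6, 77.3 and 40.6 CPM in 20% O2 and 17.4, 23.7 and 10.8 CPM in 1% O2. Ctrl TFs overlapped between oxygen levels, and the cKO and gesicle arms did not. The averaged log2 fold change was -1.24 ± 0.26 (SE; adjusted p = 0.00316, edgeR). Plxnd1, its receptor, had an averaged log2 fold change of -0.45 ± 0.20 (SE; adjusted p = 0.117, edgeR) and was not called.

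The 4 class 3 genes that fell are neighbours. They lie between positions 12383385 and 17730268 of chromosome 5 (GRCm38), a stretch of 5.35 Mb. The class 3 genes tested elsewhere, Sema3b and Sema3f on chromosome 9, had averaged log2 fold changes of -0.25 and 0.38 and were not called. The stretch was looked at after its values were seen. Of the 12 other genes tested there, 2 were called lower, 1 was called higher and 6 had a log2 fold change below 0, with a median of 0.00. Over all genes tested, 5.13% were called lower and 5.36% higher. The higher one of the 12 was Hgf, the ligand of the receptor Met, at 0.68 (adjusted p = 0.0073, edgeR). The 4 fallen members have transcripts of 39.2% to 42.1% GC, against 58.0% and 58.6% for Sema3b and Sema3f. With offsets for GC content and length, Sema3c and Sema3e kept their calls, whereas Sema3a (-0.56, adjusted p = 0.0624, edgeR) lost its call and Sema3d (-0.56, adjusted p = 0.0166, edgeR) fell below the 1.5-fold minimum.

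Among the membrane ligands, Sema6a, which signals through Plxna2 and Plxna4, was at 3.03, 9.13 and 7.39 CPM in Ctrl TFs in 20% O2 and at 2.60, 5.01 and 3.68 CPM in 1% O2. In cKO TFs it was at 21.1, 6.39 and 14.1 CPM in 20% O2 and 4.27, 3.77 and 5.33 CPM in 1% O2, and in gesicle-treated TFs at 4.15, 8.81 and 11.9 against 2.29, 4.56 and 3.31 CPM. Only the cKO groups were free of overlap. Its log2 fold change over the arms was -1.24 ± 0.28 (SE; adjusted p = 0.00449, edgeR).

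Sema5a, a membrane semaphorin with thrombospondin repeats, was low throughout. It was at 1.31, 0.886 and 0.639 CPM in Ctrl TFs in 20% O2 and at 0.387, 0.924 and 0.181 CPM in 1% O2, and at 1.90, 0.942 and 1.59 against 0, 0.144 and 0.400 CPM in cKO TFs. The 0 came from the shallow library. Gesicle-treated TFs had 0.672, 1.40 and 1.01 CPM in 20% O2 and 0.261, 0.550 and 0.0602 CPM in 1% O2. The groups overlapped in the Ctrl arm and not in the other two. Over the 3 arms its log2 fold change was -1.80 ± 0.40 (SE; adjusted p = 0.00459, edgeR), and without the shallow library the call held.

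Sema6b was the member that rose. It was at 0.483, 0.827 and 0.761 CPM in Ctrl TFs in 20% O2 and at 2.57, 1.61 and 1.74 CPM in 1% O2, with no overlap. In cKO TFs it was at 0.932, 0.306 and 0.748 CPM in 20% O2 and 0.854, 0.720 and 0.925 CPM in 1% O2, and in gesicle-treated TFs at 0.626, 1.29 and 1.16 against 1.51, 1.42 and 0.963 CPM, with overlap in both arms. The averaged log2 fold change was 0.73 ± 0.23 (SE; adjusted p = 0.0293, edgeR). The call was lost without the first Ctrl library of either oxygen level, the third cKO library in 1% O2, or the first or second gesicle library in 1% O2, with adjusted p from 0.0536 to 0.0676. The log2 fold change was 1.52 ± 0.41 (SE) in Ctrl, 0.35 ± 0.43 in cKO and 0.34 ± 0.38 in gesicle-treated TFs. The differences from the Ctrl response were -1.17 ± 0.59 (SE) for cKO and -1.18 ± 0.55 (SE) for gesicle-treated TFs, both with an adjusted p of 1.0 by edgeR.

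Plxnb1, the receptor of Sema4d, lies on chromosome 9 from 109095389 to 109119917 on the plus strand (GRCm38). It was at 6.41, 3.54 and 7.30 CPM in Ctrl TFs in 20% O2 and at 0.966, 2.03 and 1.24 CPM in 1% O2. In cKO TFs it was at 5.06, 1.66 and 2.33 CPM in 20% O2 and at 0, 1.07 and 0.950 CPM in 1% O2, the 0 again from the shallow library. Gesicle-treated TFs had 2.64, 3.08 and 7.58 CPM in 20% O2 and 2.003, 2.20 and 1.20 CPM in 1% O2. The oxygen levels did not overlap in any of the 3 arms. Its log2 fold change over the arms was -1.74 ± 0.34 (SE; adjusted p = 0.00179, edgeR), and the call held without any 1 of the 18 libraries. Its ligand Sema4d had a mean of 0.683 CPM in Ctrl TFs in 20% O2 and of 0.399 CPM in 1% O2 and was not called.

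Of the other receptors, Plxna2 had an averaged log2 fold change of -0.90 ± 0.32 (SE; adjusted p = 0.0533, edgeR) and was not called. Nor were the co-receptors: Nrp1 had 0.31 ± 0.14 (SE; adjusted p = 0.118, edgeR) and Nrp2 0.00 ± 0.19 (SE; adjusted p = 0.989, edgeR). Sema7a, the anchored ligand, ranged from 0.0304 to 3.22 CPM within Ctrl TFs in 20% O2 alone. In cKO TFs it was at 3.26, 3.03 and 1.41 CPM in 20% O2 and 0.854, 1.09 and 0.525 CPM in 1% O2, without overlap, and its averaged log2 fold change of -1.75 ± 0.65 (SE; adjusted p = 0.059, edgeR) was not called, although DESeq2 called it.

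**Figure D2:**
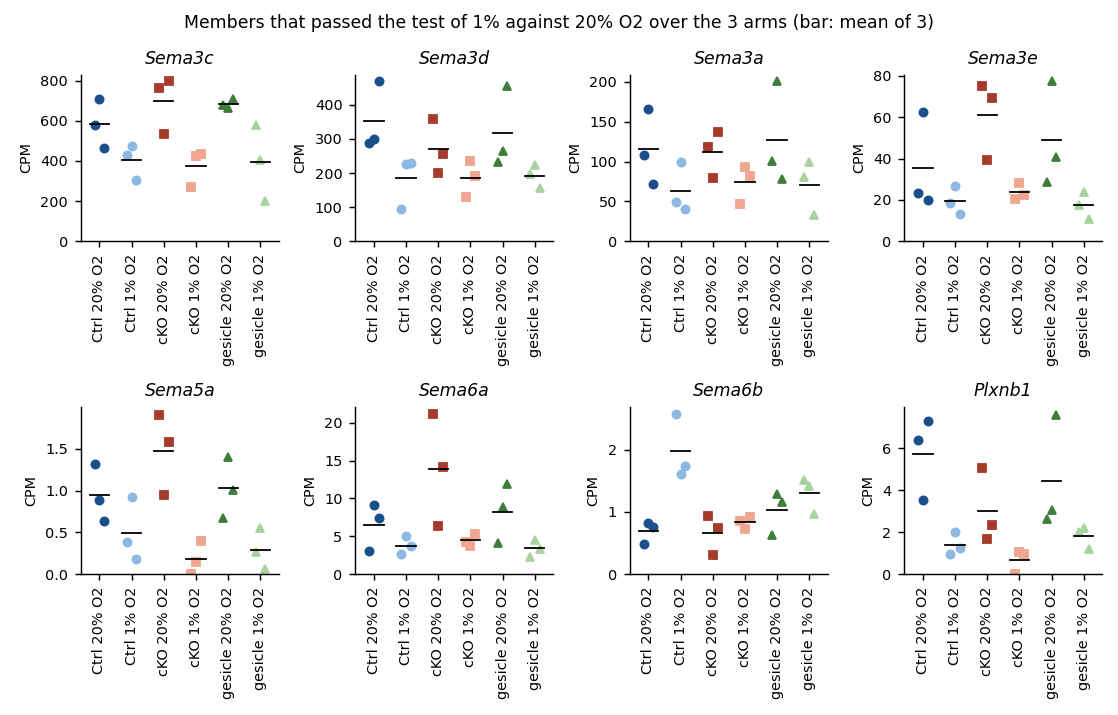
CPM in each library (points) and group means (bars, n = 3) for the 8 members called between 1% and 20% O2 over the 3 arms, with 1 panel per gene and axes from 0. The 1% means lie below the 20% means of the same arm for every panel but Sema6b, whose Ctrl libraries in 1% O2 (1.61 to 2.57 CPM) stand above all others.

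Within single arms no member was called by edgeR. In Ctrl TFs 1.88% of 15850 genes were called and 0 of the 29 members, with 5 members at an unadjusted p under 0.05 and 1.5-fold (9.44% of all genes), and DESeq2 called 2, Plxnb1 and Sema6b. In cKO TFs 2.1% of genes and 0 members were called, with 6 members at an unadjusted p (11.6% of genes), and DESeq2 called 5, Plxnb1, Sema3c, Sema3e, Sema5a and Sema6a. Without the second cKO library in 20% O2, edgeR called 6 members there. In gesicle-treated TFs 2.41% of genes and 0 members were called, with 7 members at an unadjusted p (9.41% of genes), and DESeq2 called 1, Sema3e. Limma voom with sample weights called 8, 8 and 0 members in the 3 arms. Both methods also called more genes than edgeR. Of all 15850 genes, DESeq2 called 696 in Ctrl and 892 in cKO TFs, and voom called 1543 and 2718. The difference in oxygen response between cKO and Ctrl TFs was called for 0 genes of all tested by edgeR, with 0 members and 292 genes (1.84%) at an unadjusted p. Between gesicle-treated and Ctrl TFs it was likewise 0, with 1 member, Sema6b, and 1.24% of genes at an unadjusted p, and DESeq2 and voom called 0 members in both.

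Of the fixed list of 20 genes that pair with plexins or neuropilins or share their ligands, 16 were tested and 2 were higher and 2 lower in 1% O2, against 10.5% of all genes called. Hgf and Lingo1, a Nogo receptor partner, rose, the latter by a log2 fold change of 0.68 (adjusted p = 0.000329, edgeR). Havcr2 fell by 0.59 on the log2 scale (adjusted p = 0.018, edgeR). Kdr, the main VEGF receptor, was called lower, from a mean of 0.304 CPM to 0.0161 CPM, the latter below the level of 3 reads in any library. Of the 36 plexin signalling genes, 35 were tested, and Crmp1, a collapsin response mediator (-1.29, adjusted p = 0.0409, edgeR), and Tln1, the integrin adaptor talin (-1.04, adjusted p = 0.0229, edgeR), were lower, a smaller share (2 of 35) than the 10.5% of all genes called. Among markers of other cell types, the mural genes Notch3 (-1.46) and Rgs5 (0.73), the endothelial gene Tek (-0.94) and the adipocyte gene Fabp4 (0.75) were also called, while 6 of 7 endothelial markers had means under 1 CPM in every group. Their part in the members' changes was not tested.

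The second question was whether these genes differed between cKO and Ctrl TFs. With both oxygen levels averaged (6 cKO against 6 Ctrl libraries), 5 members were lower in cKO TFs and 0 higher by edgeR, where 3.78% of 15850 genes were called, 2.68% lower and 1.1% higher. They were the receptors Plxnc1, Plxna1 and Plxna4, the co-receptor Nrp2 and the ligand Sema6d. This test treats every library as independent, although libraries at different oxygen levels may share a mouse. With the libraries of each genotype and number summed, Plxnc1 alone was called. All 8 tested plexins had a log2 fold change below 0, from -2.74 to -0.59 with a median of -0.85, against 47.4% of all genes below 0. This was not particular to genotype: all 8 were also below 0 for 1% against 20% O2 in Ctrl TFs (-2.02 to -0.08). For gesicle-treated against Ctrl TFs, all 8 were below 0 in 20% O2 (-0.72 to -0.15) and 3 in 1% O2. The 6 tested class 3 ligands had a median of 0.08 between the genotypes. In 20% O2 the genotypes did not overlap for 7 of the 29 members and 21.2% of all genes. In 1% O2 they did not overlap for 10 members and 27.3% of all genes.

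Plxnc1, the receptor of Sema7a, lies on chromosome 10 from 94790866 to 94944835 on the minus strand. It was at 4.34, 2.27 and 3.01 CPM in Ctrl TFs in 20% O2 and at 0.645, 0.102 and 0.363 CPM in cKO TFs. In 1% O2 it was at 1.88, 4.05 and 3.14 CPM in Ctrl and 0.285, 0.518 and 0.825 CPM in cKO TFs. The cKO values rest on few reads, 18, 4 and 16 in 20% O2 and 2, 18 and 33 in 1% O2. The 2 reads came from the shallow library, where 3 reads equal 0.427 CPM. Every cKO library lay below every Ctrl library, at both oxygen levels. The log2 fold change was -2.74 ± 0.39 (SE; adjusted p = 0.0046, edgeR) averaged over oxygen, a 6.70-fold lower level. This call held without any 1 of the 12 libraries and in each of the 14 other settings tried, with adjusted p up to 0.0218. Gesicle-treated TFs had 1.67, 2.65 and 1.52 CPM in 20% O2 and 3.45, 5.60 and 2.35 CPM in 1% O2, overlapping with Ctrl at both levels.

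At a single oxygen level, Plxnc1 was the member called in 20% O2 (-3.16 ± 0.55, SE; adjusted p = 0.0408, edgeR), where 0.347% of genes were called. At an unadjusted p under 0.05 with 1.5-fold, 8 members passed there (8.53% of genes), while DESeq2 called 2 and voom 10. It lost that call when only these 2 groups were fitted (adjusted p = 0.122) and without the first or the third Ctrl library or the second or the third cKO library, with adjusted p from 0.0768 to 0.225, edgeR. In 1% O2, 0.0379% of genes and 0 members were called by edgeR. There Plxnc1 had -2.33 ± 0.54 (SE; adjusted p = 0.172, edgeR) and 7 members passed an unadjusted p under 0.05 with 1.5-fold (9.77% of genes). DESeq2 called 2, Nrp2 and Plxnc1, and voom called 7. The genotype difference of Plxnc1 did not differ between oxygen levels past the test (0.83 ± 0.75, SE; adjusted p = 1.0, edgeR).

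Nrp2, the co-receptor for Sema3f and VEGF-C, lies on chromosome 1 from 62703285 to 62818695 on the plus strand. It was at 170.4, 159 and 155 CPM in Ctrl TFs in 20% O2 and at 128, 54.2 and 78.1 CPM in cKO TFs. Its 1% O2 levels were 119, 196 and 155 CPM in Ctrl and 72.4, 79.6 and 84.0 CPM in cKO TFs. The genotypes did not overlap at either level. Over both oxygen levels its log2 fold change was -0.95 ± 0.18 (SE; adjusted p = 0.018, edgeR). The call was lost without the first Ctrl library in 20% O2, or the first or second cKO library in 1% O2, with adjusted p from 0.0526 to 0.0569. Nrp1, by comparison, had a log2 fold change of 0.04 and was not called.

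Plxna1, which pairs with neuropilins as a receptor of class 3 ligands, was at 221, 146 and 179 CPM in Ctrl and 140.1, 98.5 and 119 CPM in cKO TFs in 20% O2. In 1% O2 it was at 118, 186 and 150.0 CPM in Ctrl and 84.1, 104 and 118 CPM in cKO TFs, and the genotypes did not overlap at either level. The averaged log2 fold change of -0.59 ± 0.14 (SE; adjusted p = 0.0403, edgeR) was just past the 1.5-fold minimum. With offsets for GC content and length it was -0.20 (adjusted p = 0.189, edgeR). The call held without the second Ctrl or first cKO library in 20% O2 or the first Ctrl library in 1% O2, and was lost without any 1 of the other 9, with adjusted p from 0.0518 to 0.111.

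Plxna4 was at 4.10, 2.83 and 4.90 CPM in Ctrl and 2.65, 1.63 and 0.952 CPM in cKO TFs in 20% O2. Levels in 1% O2 were 1.46, 2.77 and 2.13 CPM in Ctrl and 0.854, 0.835 and 1.40 CPM in cKO TFs. Neither level showed overlap. Its log2 fold change over both oxygen levels was -1.10 ± 0.29 (SE; adjusted p = 0.0485, edgeR) and -0.73 with the offsets (adjusted p = 0.0885, edgeR). The call held without the first cKO library in 20% O2 or the first Ctrl library in 1% O2, and was lost without any 1 of the other 10, with adjusted p from 0.0563 to 0.123.

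Sema6d, a membrane ligand of Plxna1, was at 3.06, 3.93 and 2.34 CPM in Ctrl and 2.51, 1.22 and 2.11 CPM in cKO TFs in 20% O2, with overlap. In 1% O2 it was at 3.15, 4.11 and 3.34 CPM in Ctrl and 1.28, 1.96 and 1.95 CPM in cKO TFs, without overlap. Over both oxygen levels its log2 fold change was -0.84 ± 0.22 (SE; adjusted p = 0.0487, edgeR) and -0.55 with the offsets (adjusted p = 0.0735, edgeR). The call held without the first cKO library in 20% O2 and was lost without any 1 of the other 11, with adjusted p from 0.0529 to 0.123.

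Plxnb2, the most abundant plexin, was at 337, 339 and 336 CPM in Ctrl TFs in 20% O2 and at 367, 92.7 and 205 CPM in cKO TFs. In 1% O2 it was at 172, 356 and 240.1 CPM in Ctrl and 79.8, 116 and 158 CPM in cKO TFs, without overlap. Its averaged log2 fold change was -0.86 ± 0.29 (SE; adjusted p = 0.0843, edgeR). Sema4d, the Plxnb1 ligand, was at 0.590, 1.06 and 0.396 CPM in Ctrl and 0.251, 0.356 and 0.272 CPM in cKO TFs in 20% O2. In 1% O2 it was at 0.387, 0.447 and 0.363 CPM in Ctrl and 0, 0.173 and 0.325 CPM in cKO TFs. No Sema4d value of cKO reached the Ctrl values, yet the log2 fold change of -1.06 ± 0.40 (SE; adjusted p = 0.113, edgeR) was not called. Groups were without overlap for 2 members over both oxygen levels, both lower, and for 1.32% of all genes in that direction.

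**Figure D3:**
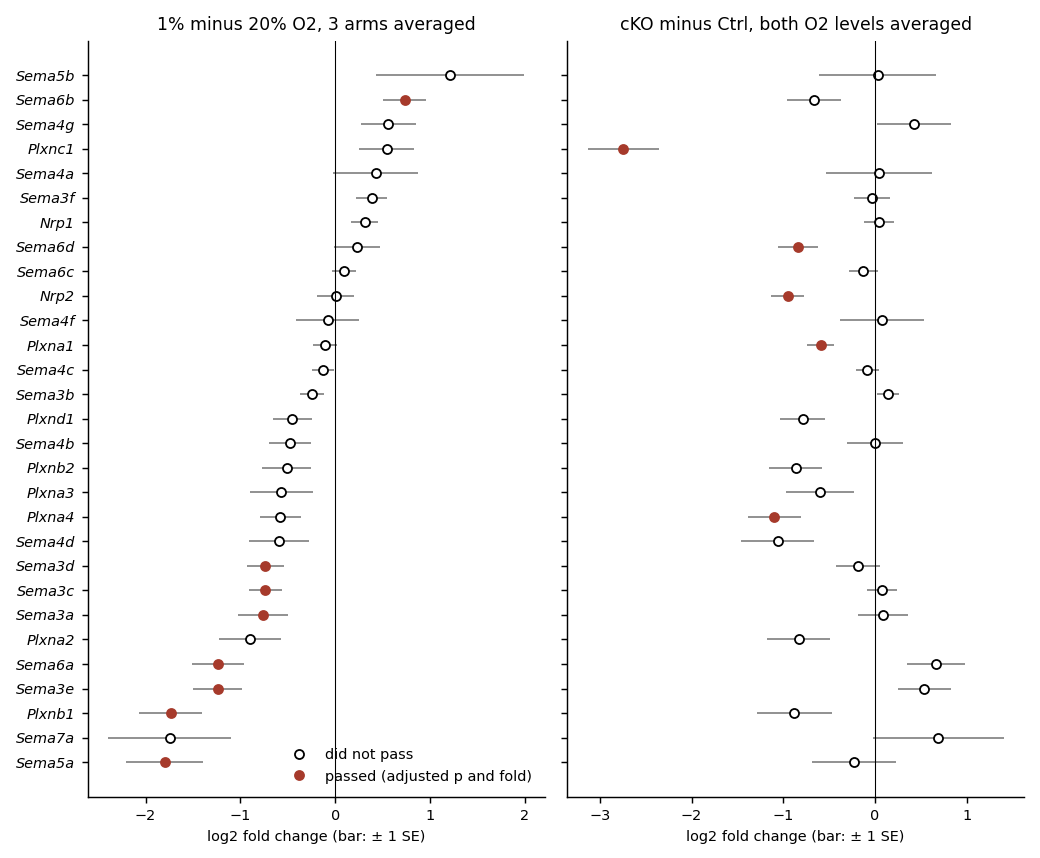
Log2 fold changes (points, bars ± 1 SE) of the 29 tested members for 1% minus 20% O2 over the 3 arms (left) and for cKO minus Ctrl over both oxygen levels (right), with filled points for members past the adjusted p and fold thresholds. Plxnc1 stands apart at -2.74 on the right, and every plexin lies below 0 there.

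**Figure D4:**
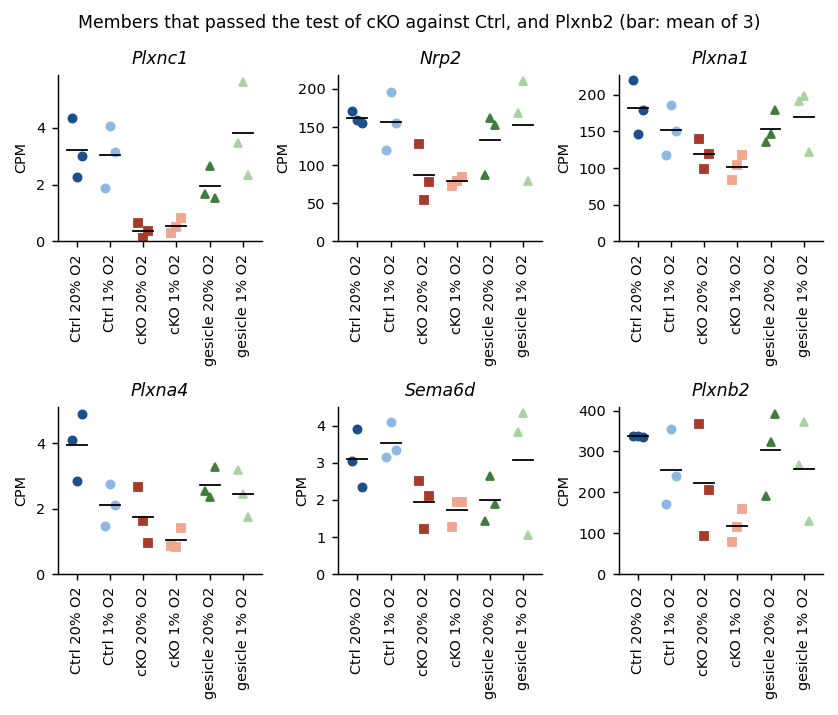
CPM in each library (points) and group means (bars, n = 3) for the 5 members called between cKO and Ctrl TFs and for Plxnb2, which was not called, with axes from 0. Plxnc1 is at 0.102 to 0.825 CPM in the cKO libraries and at 1.88 to 4.34 CPM in the Ctrl libraries.

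The 8 tested plexins have exon lengths of 7301 to 17174 bp and a GC content of 49.0% to 59.6%. Plxna2 (49.6%), Plxna4 (51.4%) and Plxnc1 (49.0%) lie below 55% GC, the cut used next, as do Nrp2 (50.5%) and Sema6d (49.0%). Long GC-rich genes shifted together between libraries. Over 315 other genes with transcripts above 7000 bp and 55% GC, the median deviation from each gene's own mean was 0.209 to 0.375 (log2) in the 3 Ctrl libraries in 20% O2. It was -0.383 to 0.264 in cKO libraries in 20% O2, -0.129 to 0.346 in Ctrl libraries in 1% O2, and -0.735 to -0.155 in cKO libraries in 1% O2. Plxnb2 deviated by 0.592 to 0.607 in the first of these groups and by -1.48 to -0.492 in the last. Across the 18 libraries it followed the median of the 315 genes (r = 0.975). The named genes below 55% GC also followed Plxnb2 in their deviations from group means. There r was 0.938 for Nrp2, 0.853 for Plxnc1, 0.846 for Plxna2, 0.809 for Sema6d and 0.563 for Plxna4. The part of the shift of long GC-rich genes in the lower plexin, Nrp2 and Sema6d values was not tested. With offsets for GC content and length, 2 of the 5 members kept their calls, Nrp2 (-0.62, adjusted p = 0.00686, edgeR) and Plxnc1 (-2.52, adjusted p = 0.00219, edgeR). With Xist as a covariate for sex the same 2 were called. When the 2 libraries of each genotype and number were summed, taking them to be 1 mouse, Plxnc1 was the member called (-2.71, adjusted p = 0.0218, edgeR), and Nrp2 had -0.87 (adjusted p = 0.165, edgeR).

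**Figure D5:**
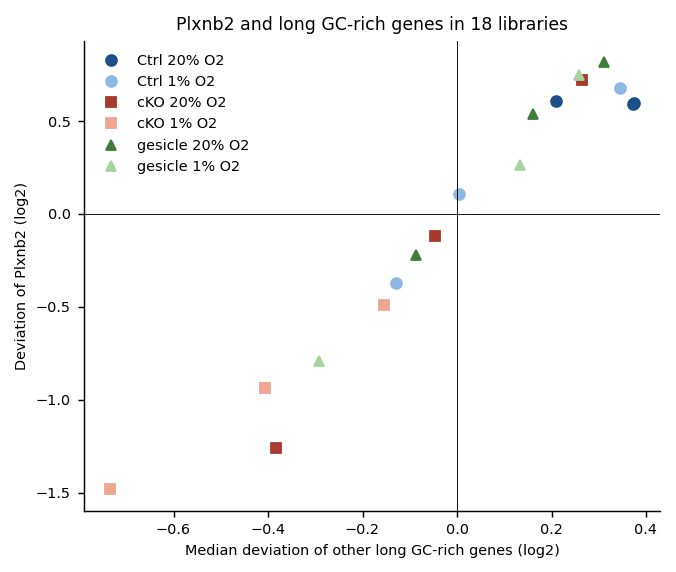
Deviation of Plxnb2 from its mean over libraries (y axis, log2) against the median deviation of 315 other long GC-rich genes (x axis, log2), with 1 point for each of 18 libraries. The libraries low in Plxnb2, down to -1.48 for cKO in 1% O2, are also those low in the other long GC-rich genes.

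Of the 15 tested partner genes, 3 were lower in cKO TFs and 0 higher by edgeR, where 2.68% of all genes were called lower. Nrcam, an adhesion molecule that binds Nrp2, went from a mean of 51.7 to 25.5 CPM (-1.03, adjusted p = 0.0222). Sdc3, a heparan sulphate proteoglycan, went from 349 to 195 CPM (-0.85, adjusted p = 0.0493). Vegfa, a ligand of both neuropilins, went from 136 to 72.8 CPM (-0.93, adjusted p = 0.0125). Of 35 tested signalling genes, 4 were lower and 0 higher, with a median of -0.01 over the list: the actin oxidase Mical2 (-1.25, adjusted p = 0.0128), and the small GTPase genes and regulators Arhgap35 (-0.78, adjusted p = 0.0487), Rnd1 (-0.70, adjusted p = 0.0292) and Mras (-0.59, adjusted p = 0.0205).

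Markers of other cell types moved with genotype. The 4 mural markers summed to 52.8 to 93.8 CPM in Ctrl and 20.2 to 32.9 CPM in cKO libraries in 20% O2, and to 33.4 to 55.2 against 24.2 to 28.9 CPM in 1% O2. Myh11 (-1.39) and Rgs5 (-0.77) were called lower. Kcnj8 and Notch3 were not called, and 1 of them had a log2 fold change of 0.87. The muscle gene Acta1 was lower (-0.91), and the fibroblast proteoglycans Dcn (2.27) and Lum (3.47) were higher in cKO TFs. The other 11 of the 13 fibroblast and tendon markers were not called, and 6 of the 13 had a log2 fold change below 0, down to -1.12. The part of these markers in the plexin and neuropilin values was not tested.

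The third question was whether Cre gesicles changed the members in Ctrl TFs. No member was called in 20% O2 (0.0247% of 16174 genes called), in 1% O2 (0 genes called) or with both averaged (0.0495%) by edgeR, and DESeq2 and voom called 0 as well. At an unadjusted p under 0.05 with 1.5-fold there were also 0 members, against 2.41%, 1.45% and 1.88% of genes. Plxnc1 had a log2 fold change of -0.72 ± 0.47 (SE) in 20% O2 and 0.33 ± 0.46 in 1% O2, and Nrp2 -0.27 ± 0.33 and -0.04 ± 0.33. For Sema6b, gesicle-treated libraries in 1% O2 lay below the Ctrl libraries, at 0.963 to 1.51 against 1.61 to 2.57 CPM (-0.60 ± 0.38, SE; adjusted p = 1.0, edgeR). Between gesicle-treated and Ctrl TFs in 1% O2, groups did not overlap for 6.32% of all genes. None of the partner or signalling genes was called with both oxygen levels averaged.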

How the data were processed

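Poly-A RNA of 18 TF libraries (6 groups of 3) was sequenced. The authors trimmed reads with Cutadapt, aligned them to GRCm38 with STAR and deposited expected counts per gene from RSEM 1.3.3, which were rounded to whole numbers here. Totals were 6857558 to 51806453 reads, and intervals beyond the spread between libraries were not computed. Tests used edgeR 4.0.16 (R 4.3.3): TMM factors, filterByExpr, the quasi-likelihood F test and Benjamini-Hochberg adjustment over all genes. Ctrl and cKO TFs were compared in a fit of 12 libraries (15850 genes), and gesicles and oxygen over 3 arms in a fit of 18 (16174 genes). A gene was called at an adjusted p under 0.05 with at least 1.5-fold change. CPM used TMM library sizes, and CPM per kb used exon lengths of GENCODE M21. Scripts were tested on simulated data.

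A member was given in every library where it was called, or where it was among the 3 members with the largest change and its groups did not overlap. Members and lists were chosen with earlier results of these data known. Samples with the same number deviated together for Ctrl TFs between oxygen levels (r from 0.271 to 0.458) and for gesicles against Ctrl (0.193 to 0.462). Between oxygen levels in cKO TFs r was weaker, from 0.0921 to 0.368. In each of the other comparisons r reached below 0. Alternatives were DESeq2 1.42.0, limma 3.58.1 voom with sample weights, other filters and size factors, a replicate block, offsets for GC content and length, Xist as a covariate, summed libraries and leaving out each library.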

Additional observations from a re-analysis of the deposited data

How the results depend on the processing

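Of the 14 member results named as called, 398 values under alternative settings kept their direction, and 79 of these were no longer called. For oxygen in Ctrl TFs, where edgeR called 0 members, 5 passed an unadjusted p, 2 were called by DESeq2 and 2 by DESeq2 with the replicate block, 8 by voom, and 1 each with no filter, with GC and length offsets, with the compared groups alone and with all 18 libraries. In cKO TFs, against 0, the counts were 6 unadjusted, 5 by DESeq2 with or without the replicate block, 4 with no filter, 8 by voom, 1 with GC and length offsets and 3 with a block by arm, and 0 to 6 with each library left out. In gesicle-treated TFs, against 0, they were 7 unadjusted, 1 by DESeq2, 2 by DESeq2 with the replicate block, 1 with no filter, 1 with the replicate block, 2 with offsets and the block, and 1 with a block by arm. Of all genes, 9.44%, 11.6% and 9.41% passed an unadjusted p with 1.5-fold in the Ctrl, cKO and gesicle arms. DESeq2 called 696 of 15850 genes in Ctrl and 892 in cKO TFs, and voom 1543 and 2718. With no filter 422 and 511 of 28539 genes were called, and with GC and length offsets 448 and 487 of 15850. Averaged over the arms, the count of 8 ranged from 7 to 11, and from 6 to 12 with each library left out. With the replicate block it was 9: Sema7a was added, and Sema3a had -0.80 (adjusted p = 0.0165, edgeR).

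For cKO against Ctrl in 20% O2, against 1 called, there were 8 unadjusted, 2 by DESeq2 with or without the replicate block, 2 with no filter, 10 by voom, 0 with the compared groups alone, and 0 with the replicate block, where Plxnc1 had -3.18 (adjusted p = 0.0526, edgeR). Leaving out each library gave 0 to 2. In 1% O2, against 0, there were 7 unadjusted, 2 by DESeq2 with or without the block, 2 with no filter and 7 by voom. Averaged over oxygen, against 5, there were 10 unadjusted, 11 by voom, 2 each with the replicate block, with GC and length offsets, with both of these and with Xist as a covariate, and 1 with libraries summed, and 1 to 8 with each library left out. Of all genes, 8.53% in 20% O2, 9.77% in 1% O2 and 11.2% averaged over oxygen passed an unadjusted p with 1.5-fold. Shares of all genes called by DESeq2 and voom are not given for these comparisons. The difference in oxygen response between gesicle-treated and Ctrl TFs had 1 unadjusted against 0, where 1.24% of all genes passed. Added alone, the block changed no call in the gesicle comparisons with Ctrl, nor between oxygen levels in Ctrl TFs, but with GC and length offsets it took the latter from 1 to 0. Where settings differ, the cause was not tested. Members under 1 CPM, and Plxnc1 in cKO TFs, rest on few reads, above all in the shallow cKO library. With 2 or 3 libraries a group left in a fit, single-arm comparisons have little precision.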
